A study of Mus musculus with 6 samples.

Results

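The regions described here are those at 7 genes of prostaglandin E2 production, breakdown and reception, namely Pla2g4a, Ptgs1, Ptgs2, Ptges, Hpgd, Ptger2 and Ptger4. A region was counted for a gene when its centre lay inside the gene's annotated span or within 100 kb of it. By that rule 13 of the 6502 listed regions lay at 6 of the 7 genes, and 1 of the 13 was counted for both Ptgs2 and Pla2g4a. The list came from ATAC-seq, which marks open chromatin by cutting it with a transposase, of basal stem cells sorted from mouse prostates. The sort kept uncultured cells that carried Sca-1 and CD49f and lacked the leukocyte marker CD45 and the endothelial marker CD31. There were 6 libraries, 3 labelled naive (genotype WT, treatment control) and 3 labelled inflamed (genotype POET3). POET3 mice carry a transgene that expresses ovalbumin in the prostate, and in the inflamed group activated splenocytes from OT-1 mice were transferred 7 days before harvest. By these labels genotype and inflammation cannot be told apart, although the extraction protocol names POET3 mice in both groups. Neither the promoter of the transgene nor any pooling of animals is given in the sources used here.

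The list gives chromosome, start and end only. Its name contains an abbreviation that may stand for differing regions and the submitters' notes name edgeR, so it was read as a list of regions that differ between naive and inflamed cells. It gives no direction, no signal and no value per library. A region at a gene is therefore a position only: it is not described as more or less open after inflammation, no replicate error or depth can be given, and expression was not measured. For the same reason the cell type could not be checked against its markers. Positions are on mm10 and counted from 1, and genes are those of RefSeq on GRCm38.p6.

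Prostaglandins are lipid signals made from arachidonic acid. Cytosolic phospholipase A2, encoded by Pla2g4a, frees the acid from membranes. The cyclooxygenases, constitutive Ptgs1 and inducible Ptgs2, convert it to prostaglandin H2, and Ptges turns that into prostaglandin E2. Hpgd oxidises prostaglandin E2 to an inactive form, while Ptger2 and Ptger4 encode the EP2 and EP4 receptors, which raise cyclic AMP. In many epithelia Ptgs2 is induced by inflammatory cytokines.

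Listed regions reached the gene start at Ptger4 and Pla2g4a only among the 7 genes. The 250 bases before each start are shown for these genes, and for Ptgs2 as the inducible enzyme whose start no listed region touched. For Ptger4 (chr15:5244188-5244437, minus strand) all 250 bases lay inside the region, and capitals mark the matches to the searched motifs. For Pla2g4a (chr1:149961291-149961540, minus strand) capitals mark the 46 bases inside the region. For Ptgs2 (chr1:150099781-150100030, plus strand) capitals mark motif matches. All are from RefSeq, GRCm38.p6, 5′ to 3′ on the strand of the gene.
Ptger4: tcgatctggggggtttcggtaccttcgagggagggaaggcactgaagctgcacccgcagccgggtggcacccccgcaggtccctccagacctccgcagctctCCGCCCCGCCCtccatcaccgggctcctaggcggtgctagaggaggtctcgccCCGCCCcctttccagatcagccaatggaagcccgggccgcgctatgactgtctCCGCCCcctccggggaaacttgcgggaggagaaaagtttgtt
Pla2g4a: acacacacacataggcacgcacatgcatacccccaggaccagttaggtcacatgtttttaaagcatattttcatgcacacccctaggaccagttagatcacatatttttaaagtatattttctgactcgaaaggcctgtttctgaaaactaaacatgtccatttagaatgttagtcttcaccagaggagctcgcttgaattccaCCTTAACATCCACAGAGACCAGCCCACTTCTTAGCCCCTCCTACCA
Ptgs2: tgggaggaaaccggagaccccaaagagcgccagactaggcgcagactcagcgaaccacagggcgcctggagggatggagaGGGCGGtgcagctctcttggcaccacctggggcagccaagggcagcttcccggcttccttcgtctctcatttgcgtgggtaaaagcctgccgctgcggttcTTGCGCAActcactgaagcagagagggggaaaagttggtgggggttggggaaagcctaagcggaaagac

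The region at Ptger4 was 451 bases wide (chr15:5244177-5244627). It ran from 440 bases before the annotated start to the first 11 transcribed bases, and its centre lay 0.215 kb outside the gene. The gene itself (NCBI gene 19219) spans 5233399 to 5244187 on chromosome 15. The region at the start of Pla2g4a was also 451 bases wide (chr1:149960886-149961336) but lay mostly on the other side of the start, with 46 bases before it and 405 from it onward. Its centre was 179 bases inside the gene. Pla2g4a has another start in the promoter table, 149922439 on chromosome 1, and no region touched that one. Thus 2 of the 7 genes had a region over a promoter window, taken as the 250 bases before a start and the 50 after it, where 3.19% of the 17492 protein-coding genes in the table did. No listed region overlapped the windows of Ptgs2, Ptgs1, Ptges, Hpgd or Ptger2.

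**Figure D1:**
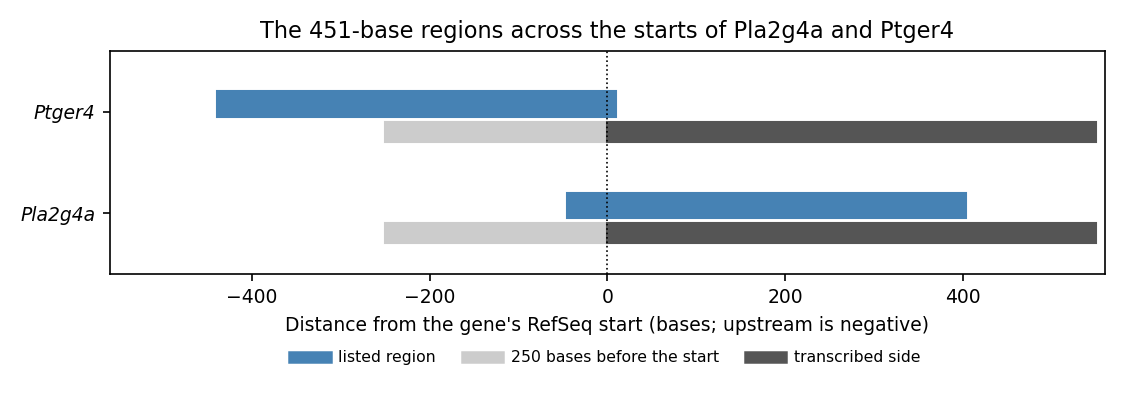
Position of the listed region (blue) at the starts of Ptger4 and Pla2g4a, in bases from the RefSeq start, with the 250 bases before the start in light grey and the transcribed side in dark grey. The Ptger4 region lies almost wholly upstream (440 bases before the start, 11 from it onward) and the Pla2g4a region mostly within the transcribed side (46 before, 405 from it onward).

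The phospholipase and inducible cyclooxygenase genes are neighbours on chromosome 1. Pla2g4a (gene 18783) spans 149829618 to 149961290 on the minus strand and Ptgs2 (gene 19225) 150100031 to 150108234 on the plus strand, so their starts face each other. From 100 kb below Pla2g4a to 100 kb above Ptgs2 the list held 6 regions. Pla2g4a was the 1 gene of the 7 with regions inside its span, where 10.2% of all protein-coding genes had one. Besides the region at the start, 451-base regions lay near its far end, at 149832925 to 149833375 and 149844909 to 149845359. They were 128.1 and 116.2 kb downstream of the start and 12.0 kb from each other. Exons and introns are not told apart by the gene table used here.

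Between both genes lay a single 451-base region (chr1:150041646-150042096), 58.2 kb upstream of the Ptgs2 start and 80.6 kb upstream of the Pla2g4a start. It is the region counted for both genes, and by distance Ptgs2 was the nearer protein-coding gene. A pseudogene, Gm19136, was closer still, at 17.6 kb. Downstream of Ptgs2 lay a pair of 143-base regions, at 150197686 to 150197828 and 150203136 to 150203278. They were 89.5 and 95.0 kb beyond the gene's end and 5.45 kb apart. Ptgs2 was the nearest protein-coding gene of both, ahead of Pdc, the phosducin gene, at 121.7 and 116.2 kb. Among all annotated genes the long noncoding RNA gene Ptgs2os2 was nearer to them, at 32.8 and 38.3 kb. The first region beyond the limit of 100 kb was the one at the start of Pla2g4a, 138.9 kb from Ptgs2. Every region counted for Pla2g4a was thus of the wider kind, while Ptgs2 had 1 wide and 2 narrow ones.

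The other cyclooxygenase gene had none. Ptgs1 (gene 19224) spans 36216742 to 36258593 on chromosome 2, and the nearest region was 430.7 kb away, a 143-base region inside Ttll11 (chr2:35785968-35786110). Of all protein-coding genes, 21.2% had their nearest region farther off than that. Within 500 kb of Ptgs1 lay 16 other protein-coding genes, of which 9 were olfactory receptor genes. No Olfr gene lay within 500 kb of any of the other 6 members. Whether this neighbourhood bears on the missing regions was not tested.

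Ptges, the inducible prostaglandin E synthase gene (gene 64292), spans 30889471 to 30931020 on chromosome 2. It had 1 region of 143 bases (chr2:30807772-30807914), 81.6 kb downstream of its span. That region lay 0.102 kb outside Ntmt1, an N-terminal methyltransferase gene, and 1700001O22Rik was the next nearest, at 4.11 kb. With 9 other protein-coding genes within 100 kb, Ptges had the most crowded surroundings of the 7. The Ptges start in the promoter table lies 27.7 kb inside its span, and measured from that start the region was 95.5 kb away. Among the 6 genes with a region, Ptges was the 1 to which no region was nearest.

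The gene of the breakdown enzyme stood in the most densely listed window. Hpgd (gene 15446) spans 56294552 to 56321046 on chromosome 8 and had 4 regions, on both sides of the gene and none within it. Upstream lay a 143-base region at 15.8 kb (chr8:56278728-56278870) and a 451-base region at 61.8 kb (chr8:56232534-56232984). Downstream of the span lay 451-base regions at 14.7 kb (chr8:56335560-56336010) and 86.4 kb (chr8:56407244-56407694). Hpgd was the nearest protein-coding gene to all 4. No other protein-coding gene lay within 100 kb of it, and the next region was 223.6 kb away, inside Glra3. Counted per length, the Hpgd window held 17.7 regions per Mb, the Ptgs2 window 14.4 and the Pla2g4a window 12.1. The windows of Ptger4, Ptger2 and Ptges, each with a single region, held 4.74, 4.64 and 4.14 per Mb. The Ptgs1 window held none. The annotated chromosomes as a whole held 2.41 per Mb. Any window of these lengths, 208.2 to 331.7 kb, exceeds that figure once it holds 1 region, so exceeding it carries no further information.

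The EP2 receptor gene Ptger2 (gene 19217) spans 44988111 to 45003820 on chromosome 14. Its region was 143 bases wide and lay 47.0 kb upstream (chr14:44941088-44941230), inside the long noncoding RNA gene Gm16976. The region just outside the limit, of 451 bases (chr14:44870237-44870687), was 117.6 kb upstream of Ptger2. It lay inside Gm16976 too and was 11.1 kb from Ptgdr, which encodes a prostaglandin D2 receptor. Of the receptor genes, Ptger4 therefore had its region at the gene start, and Ptger2 far from it.

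**Figure D2:**
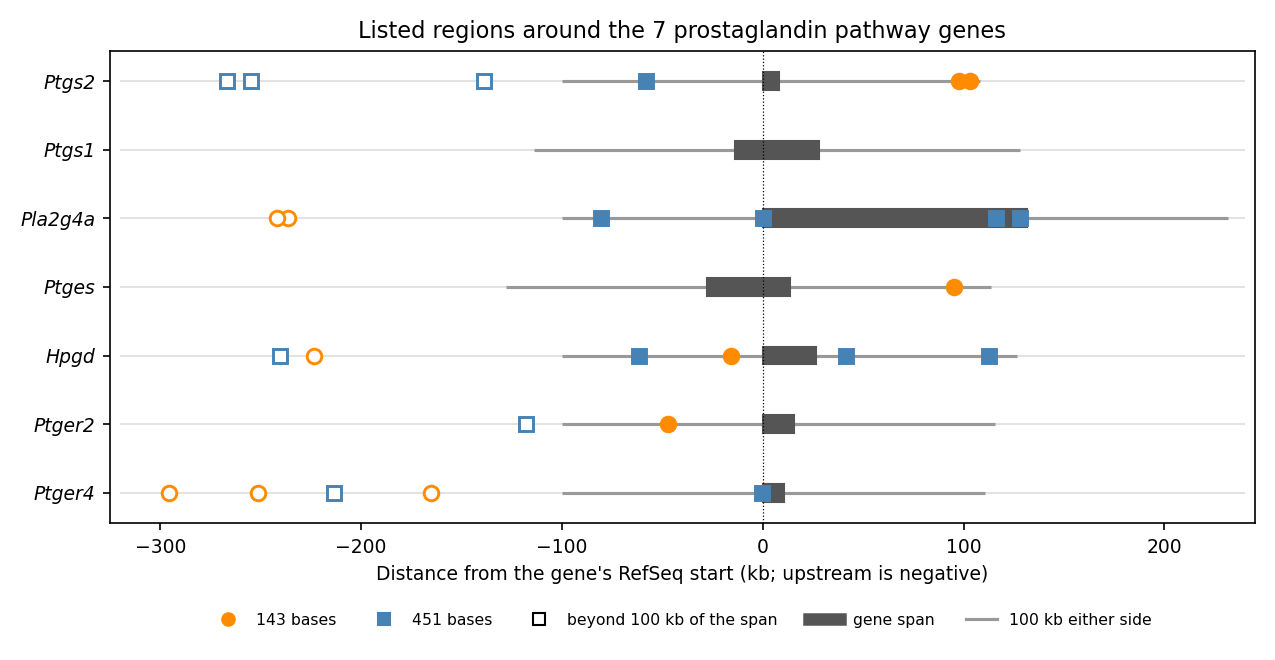
Listed regions around each of the 7 genes, in kb from the RefSeq start of the gene and oriented by its strand, with 143-base regions as circles, 451-base regions as squares, the gene span as a dark bar and 100 kb on either side as a grey line; open symbols lie beyond 100 kb of the span. Hpgd has 4 regions within 100 kb, on both sides, and open symbols farther upstream. Ptgs1 has none within the limits plotted, and the region of Ptger4 counted here sits at its start.

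Across the 7 genes, 6 had at least 1 region within 100 kb, where 42.7% of 21887 protein-coding genes did. With Olfr and Vmn genes left out that share was 45.3% of 20422 genes. Within 50 kb a region lay at 4 of the 7 genes (Pla2g4a, Hpgd, Ptger2 and Ptger4), against 29.7% of protein-coding genes, and within 200 kb at 6, against 60.0%. The counts ran from 0 at Ptgs1 through 1 each at Ptges, Ptger2 and Ptger4 and 3 at Ptgs2 to 4 each at Pla2g4a and Hpgd. The median was 1 region for the 7 genes and 0 for all protein-coding genes. There were 3 of the 7 with at least 3 regions, against 7.47% of protein-coding genes, and 2 with at least 4, against 2.82%. The shared region adds to the counts of both Ptgs2 and Pla2g4a, and longer genes have longer windows, so the 7 counts are neither independent nor on equal footing. The median distance to the nearest region was 47.0 kb for the 7 genes and 136 kb for all protein-coding genes. Of the 7 genes, 5 were the nearest protein-coding gene to a region within 100 kb, as were 16.9% of all protein-coding genes. At Ptgs2, Pla2g4a, Hpgd and Ptger2 no other protein-coding gene lay within 100 kb of the span, so few genes could be nearer.

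The list has regions of 143 and 451 bases, and a single one of 235 bases that lay at none of the 7 genes. Among the 13 regions 8 had 451 bases and 5 had 143, and in the whole list 50.6% and 49.4% had these widths. A 451-base region lay within 100 kb of Ptgs2, Pla2g4a, Hpgd and Ptger4, 4 of the 7 genes, where 19.7% of protein-coding genes had one. A 143-base region lay within 100 kb of Ptgs2, Ptges, Hpgd and Ptger2, also 4 of the 7, against 29.0%. Ptgs2 and Hpgd had both. The meaning of the widths is not given in the sources used here.

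**Figure D3:**
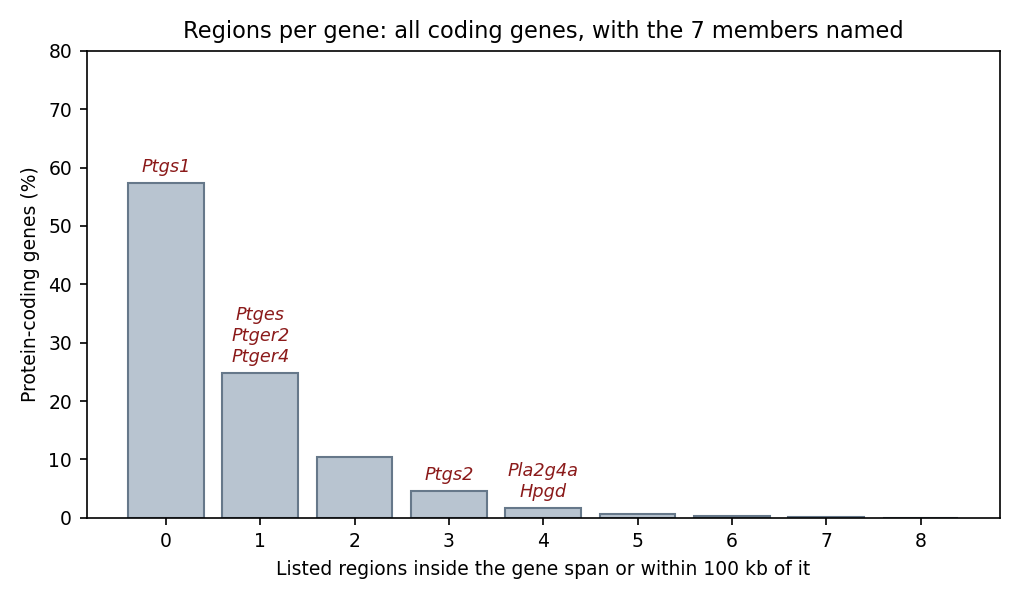
Share of all protein-coding genes (bars, percent) by the number of listed regions inside the span or within 100 kb, with the 7 genes named above their count; the few genes with more than 8 regions are not drawn. Ptgs1 falls in the 57.3% of genes with no region, and Pla2g4a and Hpgd in the 1.69% with 4.

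The promoter windows of the 7 genes, 8 in all since Pla2g4a has a pair, were searched on both strands for 8 short motifs. Sp1 motifs (GGGCGG) were found at Ptger4, Ptgs2, Ptges and Hpgd, and in 46.2% of all windows. Among the 615 windows that a listed region overlapped, as at Ptger4, the share was 71.7%. Ptger4 had 4 of them, all on the opposite strand and so reading CCGCCC in the sequence above, and the first pair shares a base. Ptgs2 had a single Sp1 match, 170 to 165 bases before the start, and a match to the C/EBP motif TTGNNCAA, reading TTGCGCAA, 69 to 62 bases before it. The C/EBP motif was in 6.23% of all windows. Ptgs2 also had the E-box CACGTG, in 7.84% of windows, just after the annotated start. Positions are counted from the RefSeq start, which was not checked against transcripts.

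TGTTCT is a part of the element bound by the androgen and glucocorticoid receptors. It was found at Ptgs1, Ptges, Ptger2 and the inner Pla2g4a start, and in 16.2% of all windows. Of these genes, none had a listed region over the window with the match. The whole element was not searched for. The letters of the TATA box, TATAAA, were in 12.6% of windows. At Hpgd they lay just after the annotated start, and at the inner Pla2g4a start they lay on the opposite strand, 200 to 195 bases before it. No member window held the NF-kB motif GGGNNTTCC, the AP-1 motif TGANTCA or the cyclic AMP response element TGACGTCA, which were in 6.30%, 6.99% and 2.23% of all windows. The search took only these exact letters within the promoter windows. Sites farther from a start, or with other letters, were not looked for. The window over the outer Pla2g4a start held none of the 8 motifs. The 250 bases before the start were 66.8% G and C at Ptger4 and 43.2% at this Pla2g4a start. The median was 55.6% over all coding promoter windows and 62.4% over those that a listed region overlapped.

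A wider list of 48 eicosanoid pathway genes, of which 47 were matched, gave the surroundings of the pathway. It includes the 7 genes. A region lay within 100 kb of 34 of the 47 (72.3%), and of 28 of the other 40 (70.0%), against the 42.7% of all protein-coding genes. Inside the span, 9 of the 47 had one, against 10.2% of all protein-coding genes. The median distance to the nearest region was 46.8 kb for the other 40. Not every list gene was the nearest protein-coding gene to a region counted for it. Ptges2, Ptgds and Alox5ap, for example, were not. Neighbouring genes share regions in this list: a single region inside Pla2g4d is counted for Pla2g4d, Pla2g4e and Pla2g4f, and Ltb4r1 and Ltb4r2 share theirs.

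Among phospholipase A2 genes 6 of 9 had a region within 100 kb, with 451-base regions inside Pla2g4c and Pla2g4d as well as Pla2g4a. Of the 9 terminal synthase and reductase genes 6 had one. The thromboxane synthase gene Tbxas1 had a 451-base region inside it, and Akr1b3, an aldo-keto reductase gene, had 3 regions, the nearest at 10.9 kb. The others, at 36.7 and 54.5 kb, had Akr1b8 as the nearest protein-coding gene. Of the transport and inactivation genes 3 of 5 had one. Besides Hpgd these were Slco2a1, the prostaglandin uptake transporter gene, with 2 regions of 143 bases inside it, and Abcc4, an efflux transporter gene, with 4 inside and 2 more within 100 kb. Those 2 lay nearer to Cldn10 than to Abcc4.

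Prostanoid receptor genes, counted with the receptor regulator Ptgfrn, had a region in 8 of 10 cases. Ptger3, which encodes the EP3 receptor, had 1 inside it and 2 of 451 bases 64.0 and 69.5 kb away. Ptgfrn had 1 inside it, Tbxa2r, the thromboxane receptor gene, had its nearest at 7.43 kb, a region closer to Cactin at 0.268 kb, and Ptger1 and Ptgir had none within 100 kb. Among leukotriene and lipoxygenase genes 10 of 12 had one. Of those 10, only Alox5, Lta4h and Cysltr2 were the nearest protein-coding gene to a region counted for them. Alox5, the 5-lipoxygenase gene, had a 451-base region inside it. At Lta4h, the leukotriene A4 hydrolase gene, a 451-base region was centred 0.005 kb outside the span. Cysltr2 and Ltb4r2, leukotriene receptor genes, had their nearest at 11.3 and 14.1 kb, and that of Ltb4r2 lay inside Dhrs1. Lta4h, Pla2g4a and Ptger4 were the 3 genes with a region over a promoter window, of the 38 list genes in the promoter table, against 3.19% of all protein-coding genes in it. Pla2g4a and Ptger4 are members already described, so Lta4h was the only further list gene with one.

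**Figure D4:**
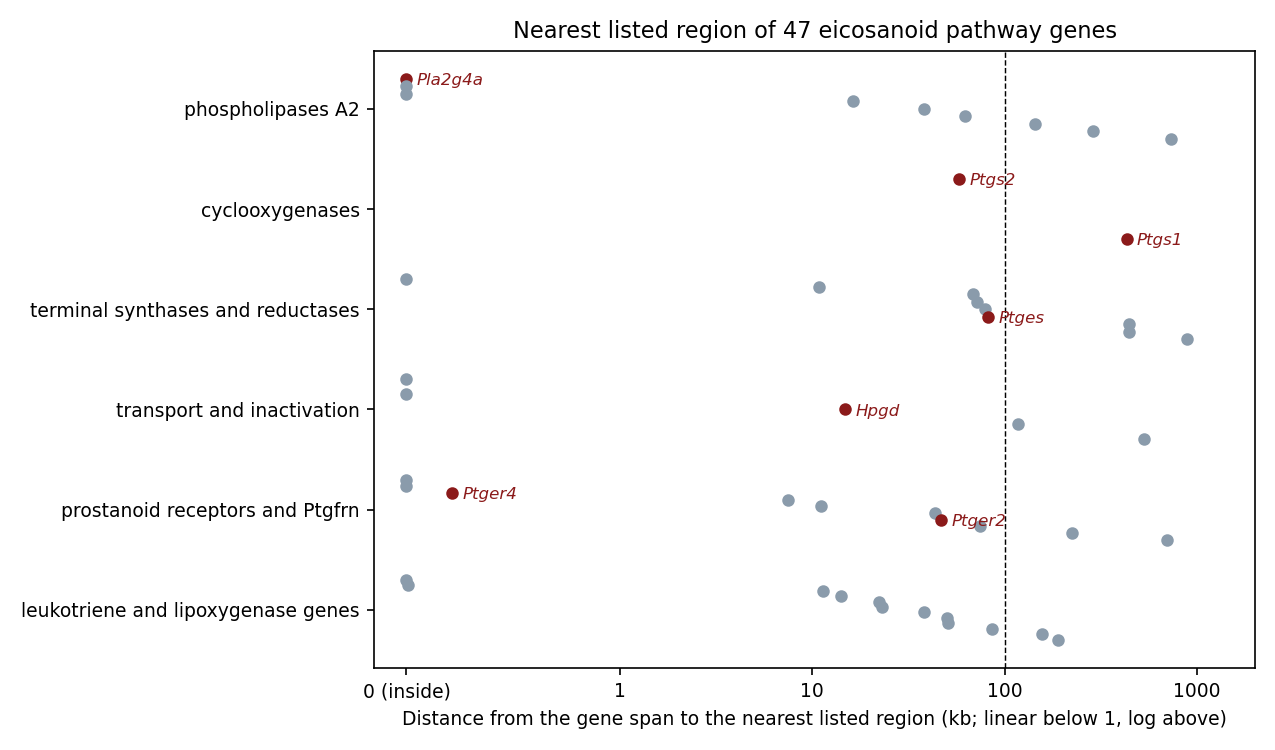
Distance in kb from the gene span to the nearest listed region for 47 eicosanoid pathway genes by role (linear below 1 kb, log above; 0 is inside the gene; the dashed line marks 100 kb), with the 7 members in red. Pla2g4a and Ptger4 lie at the left edge, Ptgs1 is at 430.7 kb, and 13 genes in all lie beyond the dashed line.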

How the data were processed

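ATAC-seq libraries of 3 naive and 3 inflamed samples are represented by 1 merged list. Its deposited values are coordinates on mm10, starts counted from 0 and printed from 1, with no count, signal, fold or p-value. BWA 0.7.17-r1188, HOMER 4.8, SAMtools and edgeR were used, per the submitters' processing notes. Their order, thresholds and filters, and any pooling of libraries before regions were called, are not spelled out in the sources used here. The name of the list holds abbreviations that may stand for some steps and settings, but their meaning is not explained. Any filter on fold or significance sets which regions can appear, and depth per library is unknown.

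Distances ran from a region's centre to the gene span, in Python 3.11.15 with pandas 2.3.3. Genes were the 21887 protein-coding genes of RefSeq GRCm38.p6 on chromosomes 1 to 19, X and Y, and promoter windows and strand came from the matching RefSeq table, which held all 7 genes. A promoter overlap needed 1 base. The nearest gene was the protein-coding gene at the smallest distance. No test between groups could be fitted and none against chance was made: shares over all protein-coding genes stand beside the counts. Named genes were the 7 members, genes nearest to their regions, and, of the wider list, genes with a region inside and the 6 others with the nearest region; others were named after their positions were seen. The members and lists were chosen with earlier results of these data known. The search was tested on simulated data.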

Additional observations from a re-analysis of the deposited data

How the results depend on the processing

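The count of members with a region, 6 with 100 kb, was 4 with 50 kb (29.7% of all protein-coding genes). It was 6 with 200 kb (60.0%) and 1 with the gene span alone (10.2%). With the 143-base regions alone it was 4 (29.0%). It was also 4 with the 451-base regions alone (19.7%), which are the same set as the regions at least as wide as the median. With any base of a region in the window it was 6. Measured from the gene start, a setting chosen after the data were seen, it was 6. The 13 regions became 7 with 50 kb, 3 with the span alone, 15 with 200 kb and 13 with regions within 1 kb merged. Of the wider list, 34 genes became 24, 38 and 9 with 50 kb, 200 kb and the span alone. A member was the nearest protein-coding gene to 12 of the 13 regions, also by distance to gene ends, and the nearest annotated gene of any kind to 7, since noncoding genes and pseudogenes then compete. These changes follow from smaller or larger windows and gene sets.

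No paired analysis was possible because values per library are not part of the deposited table, so a replicate block and leaving out a library were not run.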

Other observations

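Beyond 100 kb, the flank upstream of Ptger4 held a run of 4 further regions, at 165.2, 213.6, 251.1 and 295.6 kb from the gene. The second was 451 bases wide and the others 143. Ptger4 was the nearest protein-coding gene to all 4, with Ttc33 farther from each, while the pseudogene Gm46496 and the long noncoding RNA gene 5430437J10Rik lay nearer or enclosed them. None enters the counts within 100 kb, so the single region of Ptger4 reflects the limit of 100 kb as well as the list. The one at 165.2 kb is counted with the window of 200 kb.

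Downstream of Pla2g4a, 3 further regions of 451 bases lay 281.8, 418.4 and 424.2 kb from the gene, with Pla2g4a the nearest protein-coding gene to each. The count within 500 kb was 10 for Pla2g4a, 8 for Ptgs2, 6 for Hpgd, 5 for Ptger4, 4 for Ptger2 and 1 each for Ptges and Ptgs1. Ptgs2 and Pla2g4a are neighbours and share 7 of these regions. No share over all protein-coding genes stands beside the counts within 500 kb, so they cannot be read as high or low.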
